A study of Mus musculus with 6 samples.

Results

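The 6 forkhead transcription factor genes *Foxa2*, *Foxa3*, *Foxc1*, *Foxc2*, *Foxp1* and *Foxp2* were followed through single-cell RNA sequencing of "digits in a dish" (DID) cultures. The 6 genes were taken by symbol from the 32286 features of the deposited matrices, where 38 other forkhead genes are also listed. DID cultures were started from distal forelimb mesenchyme of E11.5 CD-1 mouse embryos, dissected, dissociated and plated at high density, and were collected at Day 2, Day 7 and Day 10 with 2 independent cultures (replicates A and B) per day. No genotype or agent distinguished the groups, so the day in culture was the only labelled variable, and each library was a mixture of all the cells that a dish held.

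Forkhead factors bind DNA through a winged-helix domain. FOXA proteins are known as pioneer factors that open chromatin in the endoderm, and in growth plate cartilage FOXA2 and FOXA3 are known to promote hypertrophy, the enlargement and final maturation of chondrocytes. FOXC1 and FOXC2 act in mesenchyme that condenses into skeleton, and FOXP1 and FOXP2 are known as repressors in the perichondrium and cartilage. Chondrocytes that leave proliferation switch on *Ihh* (Indian hedgehog, a secreted signal of prehypertrophic cells) and then *Col10a1* (collagen X, the matrix protein of hypertrophic cells), and these 2 transcripts were used here to sort the cells.

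In all, 72099 cells passed the study's limits, with 178022112 to 260245417 unique molecular identifiers (UMIs, each standing for 1 captured transcript) per library. The median depth per cell ranged from 3871 UMIs in Day 2 replicate B to 24197 UMIs in Day 10 replicate A. Shares of cells with a UMI are therefore also given after thinning cells to 5000 UMIs. Thinning left out every cell with fewer than 5000 UMIs. It kept 43.3% of cells in Day 2 replicate B but 91.3% in Day 2 replicate A. For Day 7 libraries the part kept was 60.6% to 65.6%, and for Day 10 libraries 74.8% to 81.3%. Thinned values therefore describe the deeper cells only, a different part of each library. Between 24 and 67 cell barcodes were shared by any pair of libraries, at most 0.543% of a library. Levels are given as CPM, the count of a gene scaled to a fixed total of UMIs in the library, class or marker group, each total being multiplied by its TMM normalisation factor. Summed marker lists, Day 2 class values and thinned cells were scaled by the total alone. Chondrocyte markers were abundant from Day 7, with a summed level of 8 markers of 1646 and 1805 CPM at Day 2, 15461 and 14325 CPM at Day 7, and 9421 and 8700 CPM at Day 10. Other cells changed over the same days: the summed level of 5 muscle markers went from 313 and 253 CPM at Day 2 to 3.06 and 5.75 CPM at Day 10, and that of 4 bone markers from 2.45 and 2.75 CPM to 529 and 751 CPM. In sums over whole cultures, more cells of a type and more RNA per cell cannot be told apart.

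*Foxa2* (ENSMUSG00000037025, chromosome 2, 148042877 to 148046969, minus strand, GRCm38) was almost undetected at Day 2 and was present at a low level afterwards. With replicate A given before replicate B, here and throughout, its level at Day 2 was 0.0346 and 0.0246 CPM, that of Day 7 was 1.96 and 1.78 CPM, and that of Day 10 was 1.22 and 1.06 CPM. The 3 days did not overlap, and the Day 2 values rested on 8 and 5 UMIs against 383 and 331 UMIs at Day 7. From Day 2 to Day 7 *Foxa2* rose by 5.94 ± 0.23 on the log2 scale (SE, edgeR quasi-likelihood adjusted p = 7.6e-08), a change that 67 of 18987 genes tested exceeded in the same direction. The size and the place of this change rest on those few Day 2 UMIs. Its SE was derived from the test statistic and is approximate at such counts. From Day 7 to Day 10 *Foxa2* fell by 0.71 ± 0.14 (adjusted p = 0.00339).

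*Foxa3* (ENSMUSG00000040891, chromosome 7, 19013284 to 19023538, minus strand) followed the same course from a higher start. It measured 1.90 and 1.79 CPM at Day 2, 14.4 and 14.0 CPM at Day 7, and 6.38 and 5.96 CPM at Day 10. Day 7 was the highest day and Day 2 the lowest, with no overlap between days. The rise to Day 7 was 2.94 ± 0.07 (adjusted p = 7.5e-09) and the fall to Day 10 was −1.20 ± 0.06 (adjusted p = 8.3e-06).

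*Foxc1* (ENSMUSG00000050295, chromosome 13, 31806633 to 31812476, plus strand) and *Foxc2* (ENSMUSG00000046714, chromosome 8, 121116171 to 121118895, plus strand) changed less between days than *Foxa2* and *Foxa3*. Both were lower at Day 10 than at Day 2, *Foxc1* by −0.50 ± 0.05 (edgeR adjusted p = 2.4e-05) and *Foxc2* by −0.43 ± 0.06 (edgeR adjusted p = 2.7e-04). *Foxc1* was at 145 and 147 CPM at Day 2, 117 and 110 CPM at Day 7, and 104 and 102 CPM at Day 10. It was lower at Day 7 than at Day 2 by −0.36 ± 0.05 (adjusted p = 2.4e-04), while the further difference to Day 10, −0.14 ± 0.05, did not pass (adjusted p = 0.0532). *Foxc2* was at 12.2 and 11.7 CPM at Day 2 and at 12.3 and 12.8 CPM at Day 7, a difference of 0.08 with a 95% interval of −0.07 to 0.22 (adjusted p = 0.306). It fell to 9.29 and 8.41 CPM at Day 10, by 0.51 ± 0.06 from Day 7 (adjusted p = 3.7e-04).

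The FOXP genes went separate ways after Day 2. *Foxp2* (ENSMUSG00000029563, chromosome 6, 14901349 to 15441977, plus strand) was at 137 and 139 CPM at Day 2, 61.8 and 64.2 CPM at Day 7, and 54.5 and 56.2 CPM at Day 10. It fell by 1.13 ± 0.05 to Day 7 (adjusted p = 1.5e-07) and by a further 0.19 ± 0.05 to Day 10 (adjusted p = 0.012), a call that was lost without any 1 of the 4 Day 7 and Day 10 libraries. *Foxp1* (ENSMUSG00000030067, chromosome 6, 98925338 to 99522721, minus strand) was at 160 and 154 CPM at Day 2, 137 and 150 CPM at Day 7, and 200.4 and 190.9 CPM at Day 10. Its difference between Day 2 and Day 7, −0.13 ± 0.06, did not pass (adjusted p = 0.0944), and it rose by 0.45 ± 0.06 from Day 7 to Day 10 (adjusted p = 5.2e-04).

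**Figure D1:**
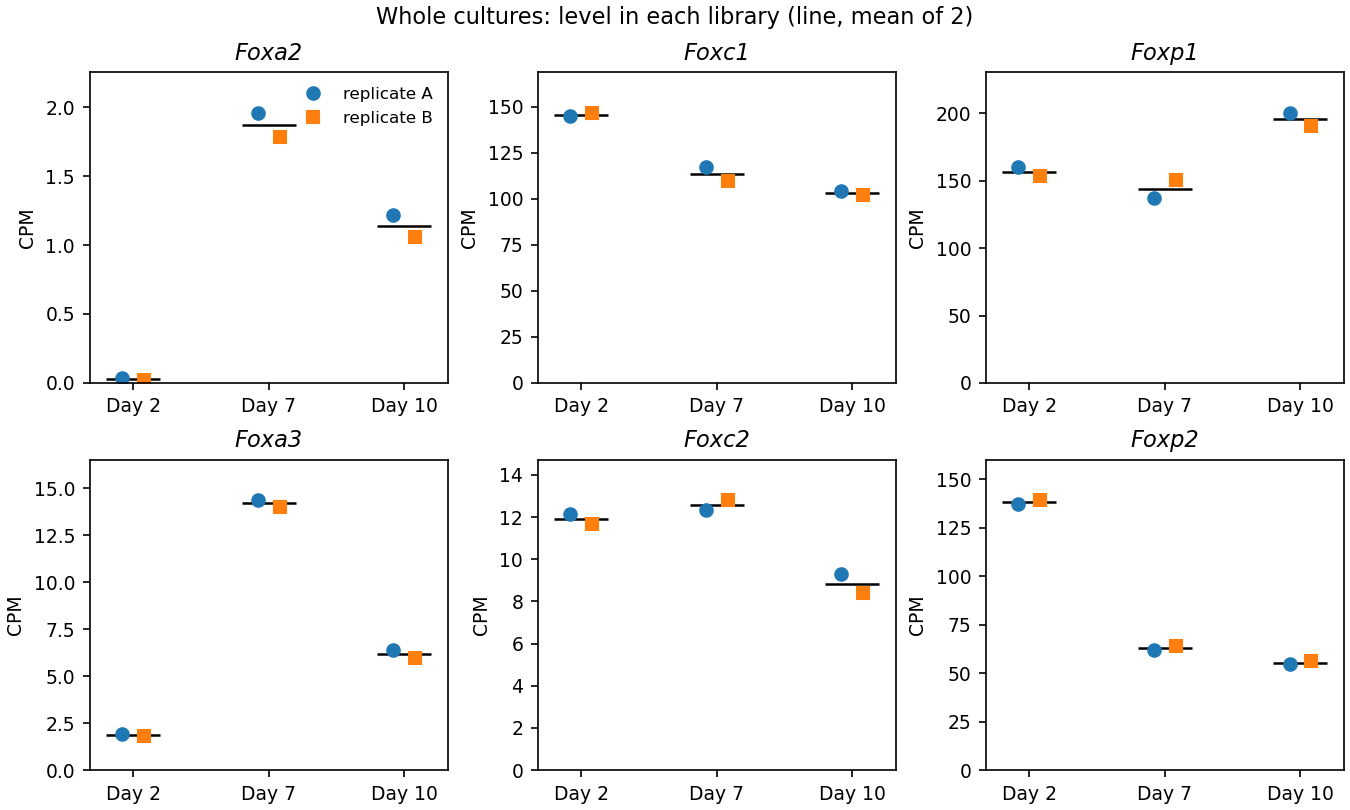
Level of each gene in CPM (vertical axis, from 0) by day, with circles for replicate A, squares for replicate B and a line at the mean of 2. *Foxa2* and *Foxa3* peaked at Day 7 (means of 1.87 and 14.2 CPM), *Foxp2* was highest at Day 2 (138 CPM) and *Foxp1* at Day 10 (196 CPM).

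Counted over the 6 genes, 4 were called between Day 2 and Day 7 (2 higher, 2 lower), against 70.3% of all genes tested. Between Day 7 and Day 10, 5 were called (1 higher, 4 lower), against 52.2% of all genes, and between Day 2 and Day 10 all 6 were (3 higher, 3 lower), against 77.3%. The 3 comparisons share libraries. Of the 38 other forkhead genes, 23 had enough counts to be tested, and 10 of them were higher and 6 lower at Day 7 than at Day 2. Those of at least 5 CPM with the greatest changes by Day 10 were *Foxs1*, expressed around vessels, at 1.18 and 0.791 CPM at Day 2 and 14.6 and 16.3 CPM at Day 10, and *Foxd1*, a marker of stroma, at 2.98 and 3.27 CPM at Day 2 and 14.5 and 19.1 CPM at Day 10. *Foxm1*, a cell cycle factor, went from 12.5 and 12.8 CPM to 6.65 and 7.15 CPM, and *Foxp4*, another FOXP gene, from 44.5 and 40.7 CPM to 28.0 and 27.1 CPM. All 4 changes were called (adjusted p under 0.05).

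Few cells held a *Foxa* UMI at any day. *Foxa2* was seen in 0.0847% and 0.0243% of the Day 2 cells, 2.25% and 2.20% of the Day 7 cells, and 1.85% and 1.65% of the Day 10 cells. After thinning the *Foxa2* shares, now of the deeper cells only, were 0.0232% and 0.0280%, 0.796% and 0.642%, and 0.462% and 0.417%, with Day 7 again highest. Immune marker cells, which carry at least 3 of 6 macrophage transcripts and should lack cartilage genes, served as the background. At Day 10 without thinning, 0 of 142 and 0 of 198 of these cells had a *Foxa2* UMI. A limit of 3 counts over the cells allows up to 2.11% and 1.52%. They were therefore too few to set a background clearly below the culture's own share. The shares for *Foxa3* were 3.67% and 1.81%, then 12.1% and 12.6%, then 8.22% and 7.54%. In cells thinned to 5000 UMIs the *Foxa3* shares were 1.23% and 0.938%, 5.46% and 5.08%, and 2.38% and 2.38%, in the same order of days. After thinning, 0 of 125 and 0 of 157 immune marker cells at Day 10 had a *Foxa3* UMI. By the same limit this allows shares of up to 2.40% and 1.91% from counting error alone, so these cells were too few to set a background clearly below the 2.38% of the whole culture. Without thinning they had a *Foxa3* UMI in 0% and 1.52% of cells at Day 10 (median depths of 20609.5 and 20226 UMIs), and in 6.06% and 5.66% at Day 7, where 33 and 53 such cells were found.

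*Foxa3* cells carried cartilage transcripts. Among thinned cells with a *Foxa3* UMI, aggrecan (*Acan*) was seen in 96.4% to 97.3% at Day 7 and 94.0% to 97.2% at Day 10, against 67.2% to 70.7% and 47.7% to 48.7% of the cells without one. All 8 chondrocyte markers were more frequent in *Foxa3* cells in both libraries of both days, and the same count held for *Foxa2* cells. Each of the 4 perichondrium markers was less frequent, *Col1a1* for example at 69.5% to 74.1% against 94.7% to 95.6% at Day 10. Of 7 markers of endoderm-type cells, in which FOXA factors are best known, 1 was more frequent and 2 less frequent in thinned *Foxa3* cells in both libraries of Day 7, and 2 more and 3 less frequent at Day 10. *Shh*, *Sox17*, *Ttr* and *Afp* had no UMI in these cells at either day, and without thinning each was seen in at most 0.133% of *Foxa3* cells. *Epcam*, an epithelial adhesion protein, was seen in 0.224% to 0.728% against 0.130% to 0.194% at Day 7 and in 0.498% to 0.565% against 0.0964% to 0.0971% at Day 10. Of the keratins, *Krt8* was seen in 0.728% to 1.12% against 0.754% to 0.829%, then 1.13% to 1.49% against 0.583% to 1.13%, and *Krt18* in 1.12% to 1.70% against 5.50% to 5.96%, then 1.70% to 2.49% against 5.60% to 7.59%.

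The cells of each library were then placed in 4 classes by their UMIs of *Ihh* and *Col10a1*: neither, *Ihh* only, *Col10a1* only, or both. *Ihh* only cells were 6.85% and 7.70% of cells at Day 7 and 6.74% and 6.92% at Day 10, *Col10a1* only cells 8.25% and 5.80%, then 22.0% and 17.4%, and cells with both 1.77% and 1.33%, then 5.43% and 3.95%. UMIs of a class within a library were summed, and the sums were compared with library as a block (n = 2 libraries per day). The classes differed in depth, with a median of 20735 UMIs for neither and 41432 UMIs for both in Day 10 replicate A, so each comparison was repeated on cells thinned to 5000 UMIs. All comparisons of a day with neither share the neither sums. A single UMI is a weak mark of either gene: at Day 10 the immune marker cells had an *Ihh* UMI in 5.63% and 7.07% and a *Col10a1* UMI in 20.4% and 12.6% of cells, against 12.2% and 10.9%, and 27.5% and 21.3%, of the whole culture. After thinning the *Col10a1* shares were 4.0% and 5.73% of immune marker cells against 12.3% and 11.7%. A comparison of *Col10a1* only with neither therefore sets cells with a UMI against cells without one, and not expressing against non-expressing cells.

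*Foxa2* was high where *Ihh* was, whether or not *Col10a1* was seen. At Day 10 it measured 0.197 and 0.266 CPM in neither, 3.81 and 3.78 CPM in *Ihh* only, 0.242 and 0.291 CPM in *Col10a1* only, and 7.95 and 6.24 CPM in cells with both. The *Ihh* classes lay far above the other 2, which overlapped. *Ihh* only exceeded neither by 4.02 ± 0.21 (edgeR adjusted p = 3.9e-10), and only 2 of 15228 genes tested had a greater positive difference. *Col10a1* only differed from neither by 0.18, with a 95% interval of −0.46 to 0.82 (adjusted p = 0.861), and the sign turned with at least 2 UMIs for a class (−1.06 ± 0.60, adjusted p = 0.306).

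At Day 7 the *Ihh* classes again lay above the other 2, which were higher than at Day 10. *Foxa2* measured 0.989 and 0.810 CPM in neither, 5.59 and 5.76 CPM in *Ihh* only, 0.900 and 0.789 CPM in *Col10a1* only, and 7.13 and 5.86 CPM in both. *Ihh* only exceeded neither by 2.66 ± 0.16 (adjusted p = 2.1e-09), and *Col10a1* only lay below *Ihh* only by −2.75 ± 0.22 (adjusted p = 5.6e-08), a call that was lost in thinned cells (−1.66 ± 0.69, adjusted p = 0.0717). At Day 2, when the *Foxa2* count in any class was at most 4 UMIs, no comparison was made.

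*Foxa3* had the same layout with more counts behind it. At Day 10 it was at 2.50 and 2.29 CPM in neither, 17.4 and 19.7 CPM in *Ihh* only, 2.73 and 2.06 CPM in *Col10a1* only, and 28.0 and 27.9 CPM in both. *Ihh* only exceeded neither by 2.95 ± 0.11 (adjusted p = 6.2e-12) and cells with both exceeded neither by 3.54 ± 0.10 (adjusted p = 2.1e-13), while *Col10a1* only was 0.02 from neither with an interval of −0.25 to 0.30 (adjusted p = 0.967), or −0.41 ± 0.16 with at least 2 UMIs for a class (adjusted p = 0.114). The 2 classes without *Ihh* could not be separated, and both lay below the *Ihh* classes in each library.

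At Day 7 *Foxa3* was at 9.75 and 9.78 CPM in neither, 32.5 and 28.1 CPM in *Ihh* only, 7.60 and 7.94 CPM in *Col10a1* only, and 31.3 and 34.5 CPM in both. *Ihh* only exceeded neither by 1.63 ± 0.08 (adjusted p = 2.1e-10), and *Col10a1* only was lower than neither by −0.34 ± 0.11 (adjusted p = 0.0362, 0.53 after thinning, with the call also lost without either Day 7 library, and −0.93 with at least 2 UMIs for a class, adjusted p = 7.1e-05). At Day 2, values with no test were 1.44 and 1.53 CPM in neither and 12.2 and 9.30 CPM in *Ihh* only, so *Ihh* cells already stood apart at Day 2.

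The share of *Foxa* transcripts that lay in *Ihh* cells was higher at Day 10 than at Day 7 in both libraries. Cells with an *Ihh* UMI held 39.8% and 37.7% of the *Foxa3* UMIs at Day 7 and 61.7% and 64.1% at Day 10, and 54.3% and 58.6%, then 83.6% and 75.3%, of the *Foxa2* UMIs. Over the same days their part of all UMIs was 18.0% and 18.4%, then 17.0% and 16.3%. At Day 2 they held 37.5% and 32.6% of the *Foxa3* UMIs beside 6.77% and 7.26% of all UMIs. These shares depend on how often *Ihh* was detected, as 1 UMI made a cell an *Ihh* cell. Median depth per cell was 8062 and 9337 UMIs at Day 7 against 24197 and 22128 UMIs at Day 10. *Ihh* itself was at 15.98 and 16.92 CPM at Day 7 and 28.05 and 27.75 CPM at Day 10. The part of depth and of the *Ihh* level in the change of these shares was not tested. The neither class went from a mean of 9.77 ± 0.02 CPM (SD, n = 2) of *Foxa3* at Day 7 to 2.39 ± 0.15 CPM at Day 10, and the cells with both from 32.9 ± 2.3 to 28.0 ± 0.1 CPM. *Ihh* only cells went from 30.3 ± 3.1 to 18.5 ± 1.6 CPM and *Col10a1* only cells from 7.8 ± 0.2 to 2.4 ± 0.5 CPM.

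The sequences before the transcription starts of *Foxa3* and of both sorting genes are shown because *Ihh* and *Col10a1* defined the classes between which *Foxa3* was compared. Each is the 250 bases upstream of the start in RefSeq (GRCm38.p6), 5′ to 3′ on the gene's strand, with TATAAA on that strand in capitals. *Foxa3* is at chr7:19023540-19023789 (minus), *Ihh* at chr1:74951673-74951922 (minus) and *Col10a1* at chr10:34389731-34389980 (plus).
Foxa3: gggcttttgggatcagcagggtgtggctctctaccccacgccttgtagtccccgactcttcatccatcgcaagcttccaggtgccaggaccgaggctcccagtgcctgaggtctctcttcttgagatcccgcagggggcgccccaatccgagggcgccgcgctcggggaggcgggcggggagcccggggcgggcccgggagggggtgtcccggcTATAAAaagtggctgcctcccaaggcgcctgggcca
Ihh: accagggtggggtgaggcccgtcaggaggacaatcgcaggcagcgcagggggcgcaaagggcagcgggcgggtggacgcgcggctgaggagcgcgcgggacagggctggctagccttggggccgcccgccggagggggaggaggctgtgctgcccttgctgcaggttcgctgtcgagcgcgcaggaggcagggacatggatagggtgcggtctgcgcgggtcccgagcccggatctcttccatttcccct
Col10a1: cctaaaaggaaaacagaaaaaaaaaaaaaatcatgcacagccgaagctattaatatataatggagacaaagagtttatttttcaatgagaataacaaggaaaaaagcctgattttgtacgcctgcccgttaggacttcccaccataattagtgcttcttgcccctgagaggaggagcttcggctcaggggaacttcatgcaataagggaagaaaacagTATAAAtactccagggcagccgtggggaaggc
TATAAA began 36 bases before the start in *Foxa3* and 32 bases before it in *Col10a1*, had no match in *Ihh*, and is present in 7.59% of 32851 promoters of this length. GC made up 68.8%, 72.0% and 41.6% of the 3 stretches. The forkhead letters TGTTTAC, searched on both strands, had no match in these 3 or in the other listed starts of *Foxa2*, *Foxc1* and *Foxp1* (3.17% of all promoters hold them), and TGTTTGC had 1 match, 167 bases before a *Foxp1* start (4.30% of all). The promoter table held 4 of the 6 genes.

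**Figure D2:**
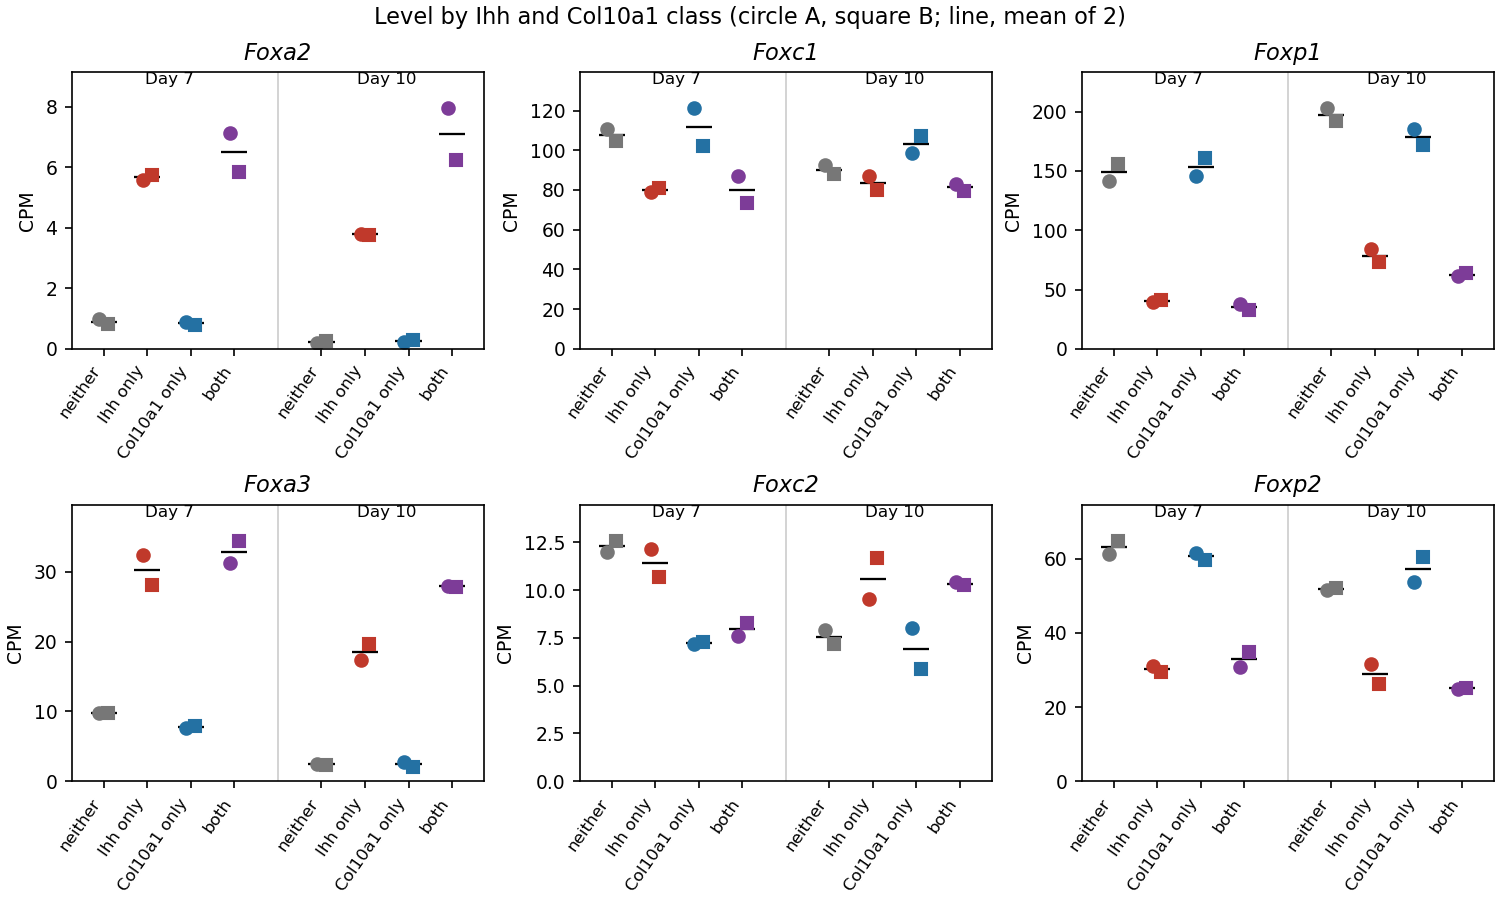
Level in CPM (vertical axes, from 0) of each gene in the 4 *Ihh* and *Col10a1* classes at Day 7 and Day 10, with circles for replicate A, squares for replicate B and a line at the mean of 2. *Foxa2* and *Foxa3* were high in the red and purple classes that hold *Ihh* UMIs, *Foxp1* and *Foxp2* were low there, and *Foxc1* stayed between 73.4 and 121 CPM throughout.

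*Foxp1* was low in the classes where *Foxa3* was high. At Day 7 it measured 141 and 156 CPM in neither, 40.0 and 40.9 CPM in *Ihh* only, 146 and 161 CPM in *Col10a1* only, and 37.7 and 32.5 CPM in both. At Day 10 the same classes were at 203 and 192, 84.0 and 73.2, 186 and 172, and 61.8 and 63.7 CPM. The classes with and without *Ihh* did not overlap at either day. *Ihh* only lay below neither by −1.88 ± 0.06 at Day 7 (adjusted p = 4.7e-12) and by −1.33 ± 0.05 at Day 10 (adjusted p = 1.6e-11), and *Col10a1* only was not called against neither (0.04 ± 0.05 and −0.15 ± 0.05, adjusted p = 0.565 and 0.119), although at Day 10 it was in thinned cells (−0.23, adjusted p = 0.0262) and without the low-count filter (−0.16, adjusted p = 6.9e-04).

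*Foxp2* was lower in *Ihh* cells too, by less. It was at 61.3 and 64.9 CPM in neither and 31.1 and 29.3 CPM in *Ihh* only at Day 7, and at 51.6 and 52.2 CPM and 31.6 and 26.3 CPM at Day 10. *Col10a1* only cells were at 61.6 and 59.7 CPM, then 53.8 and 60.5 CPM, and did not pass against neither (−0.05 and 0.14), while at Day 10 they did in thinned cells (0.51, adjusted p = 7.2e-06) and with at least 2 UMIs for a class (0.32, adjusted p = 0.00669). The *Ihh* only difference was −1.06 ± 0.07 at Day 7 (adjusted p = 3.6e-09) and −0.84 ± 0.07 at Day 10 (adjusted p = 1.1e-07).

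*Foxc1* and *Foxc2* differed less than the other 4 genes between *Ihh* only and neither. At Day 7 *Foxc1* was at 111 and 105 CPM in neither and 79.0 and 81.1 CPM in *Ihh* only, a difference of −0.43 ± 0.06 (adjusted p = 1.6e-05), and at Day 10 at 92.5 and 87.8 CPM and 87.0 and 80.2 CPM, which did not pass (−0.11 ± 0.06, adjusted p = 0.136). *Foxc2* was lower in *Col10a1* only cells at Day 7, at 7.20 and 7.31 CPM against 12.0 and 12.6 CPM in neither (−0.76 ± 0.12, adjusted p = 3.2e-04), and by −1.17 in thinned cells and −1.45 with at least 2 UMIs for a class. At Day 10 *Foxc2* was higher in *Ihh* only cells, at 9.55 and 11.7 CPM against 7.94 and 7.19 CPM in neither (0.49 ± 0.12, adjusted p = 0.00242). That last call was lost without Day 10 replicate B (0.26, adjusted p = 0.117) and in thinned cells (0.34, adjusted p = 0.337).

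The class differences themselves were also compared between the days. The *Ihh* only difference was more positive, or less negative, at Day 10 than at Day 7 for all 6 genes and was called for 5 (not *Foxp2*, 0.22, adjusted p = 0.147, which was called without Day 10 replicate B at 0.35 and without the low-count filter at 0.20), beside 20.8% of all genes called in either direction, and for *Foxa3* by 1.32 ± 0.13 (edgeR adjusted p = 4.5e-06). For *Col10a1* only 1 gene passed (*Foxc2*), beside 6.36%, and for cells with both 4 did, beside 18.8%. Thinning left out the shallower cells, a larger part at Day 7 than at Day 10, and made the *Ihh* and *Col10a1* classes smaller. In thinned cells *Foxa3* in *Ihh* only kept its call (1.88, adjusted p = 7.9e-07). There 6.15%, 3.37% and 1.84% of all genes were called for *Ihh* only, *Col10a1* only and both. The other 9 kept their sign and lost their call, with *Foxa2* in *Ihh* only at 1.52 ± 0.62 (adjusted p = 0.164) and *Foxa3* in cells with both at 1.86 ± 0.54 (adjusted p = 0.0626).

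**Figure D3:**
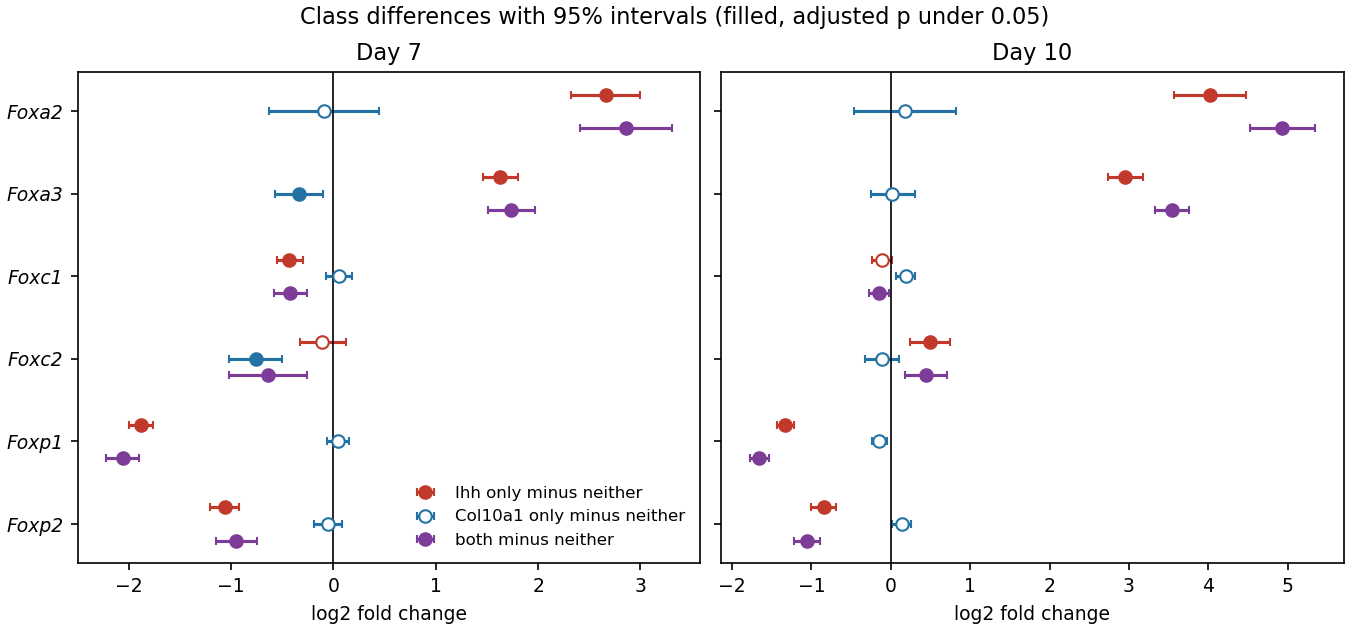
Log2 fold change (horizontal axes) of each class against neither at Day 7 and Day 10, with 95% intervals and filled points for adjusted p under 0.05. *Foxa2* and *Foxa3* lie to the right in the *Ihh* classes (4.02 and 2.95 for *Ihh* only at Day 10) and *Foxp1* and *Foxp2* to the left (−1.33 and −0.84), while the blue *Col10a1* only points stay between −0.76 and 0.19.

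Counted over the 6 genes, *Ihh* only against neither called 5 at Day 7 and 5 at Day 10, beside 60.0% and 56.9% of all genes tested. *Col10a1* only against neither called 2 at Day 7, beside 25.0%, and 0 at Day 10, beside 3.09%, where edgeR gave 470 calls of 15228 and 3 of the 6 genes had an unadjusted p under 0.05 (*Foxc1*, *Foxp1* and *Foxp2*), beside 15.1% of all genes. DESeq2 also called 0 of the 6 there, but thinned cells called these 3 (beside 5.92%), at least 2 UMIs for a class called *Foxc1* and *Foxp2* (beside 12.0%), and the fit without the low-count filter called *Foxc1* and *Foxp1* (beside 4.10%). Both against neither called all 6 genes at both days, beside 49.3% and 63.0%, and *Col10a1* only against *Ihh* only called all 6 at both days, beside 54.6% and 54.5%. In thinned cells, both against neither kept 1 of its 6 calls at Day 7 (*Foxp1*, beside 2.51% of all genes) and 4 at Day 10 (beside 23.5%), and *Col10a1* only against *Ihh* only kept 5 at each day (beside 25.3% and 31.3%), without *Foxa2* at Day 7 and *Foxc2* at Day 10. The call of *Foxc1* in both at Day 10 (−0.15, adjusted p = 0.0488) was also lost with DESeq2, with at least 2 UMIs for a class and without either Day 10 library. *Foxc2* in both at Day 7 was not called without either Day 7 library (−0.67 to −0.62), and without Day 10 replicate B neither *Foxc1* (0.19) nor *Foxc2* (−0.25) was called in *Col10a1* only against *Ihh* only at Day 10. *Foxc2* in that comparison at Day 7 was not called without Day 7 replicate A (−0.56). Of the 27 genes of a hypertrophy and hedgehog list, 25 could be tested (*Ihh* and *Col10a1* define the classes), and 16 were higher and 7 lower in *Ihh* only cells at Day 10, with a median of 0.60 against −0.01 for all genes. The list had no such lean at Day 7, where 12 were higher and 12 lower, with a median of −0.00 against −0.00 for all genes. Most changed at Day 10 were *Panx3*, a channel of prehypertrophic chondrocytes (3.18 ± 0.05), *Pth1r*, the PTHrP receptor (2.63 ± 0.06), and *Phospho1*, a phosphatase of mineralisation (2.60 ± 0.29). In *Col10a1* only cells at Day 10, 1 of the 25 was called (*Sox6*, −0.26 ± 0.07).

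Of the 19 other forkhead genes tested in the classes, 1 was higher and 8 were lower in *Ihh* only cells at Day 10, beside 56.9% of all genes called, and 1 was higher and 12 lower at Day 7, beside 60.0%. The higher one was *Foxo4*, a FOXO factor under insulin signalling, with a difference of 0.79. *Foxp4* differed by −0.55, *Foxn3* by −0.75, *Foxm1* by −0.82 and *Foxs1* by −1.35, all called, so *Foxp1*, *Foxp2* and *Foxp4* were all lower in these cells.

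Because classes by a single UMI are partly a matter of depth, cells thinned to 5000 UMIs were also grouped by how many *Ihh* UMIs they kept. *Foxa3* was at 11.4 and 10.5 CPM at Day 7 and 3.63 and 3.76 CPM at Day 10 in cells with 0 *Ihh* UMIs. With 1 UMI it was at 21.5 and 22.3 CPM, then 20.6 and 21.3 CPM, and with 2 or 3 UMIs at 27.6 and 32.0 CPM, then 34.6 and 38.0 CPM. The 3 steps rose in each of the 4 libraries. *Foxp1* took the opposite course, with 140 and 159 CPM, then 201 and 195 CPM, at 0 UMIs, and 24.1 and 24.0 CPM, then 30.9 and 26.3 CPM, at 2 or 3 UMIs.

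The same grouping by *Col10a1*, in cells with no *Ihh* UMI, gave no such steps for *Foxa3*. It was at 3.54 and 3.57 CPM at Day 10 with 0 *Col10a1* UMIs, 4.11 and 4.62 CPM with 1 or 2, and 3.43 and 3.35 CPM with 3 to 9. At 10 to 29 UMIs the values were 5.71 and 18.5 CPM from 70 and 54 cells, and replicate B stood apart there. *Foxp2* in these cells was higher where *Col10a1* was seen, at 61.8 and 66.6 CPM with 0 UMIs, 84.2 and 92.9 CPM with 1 or 2, and 129 and 96.1 CPM with 3 to 9.

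**Figure D4:**
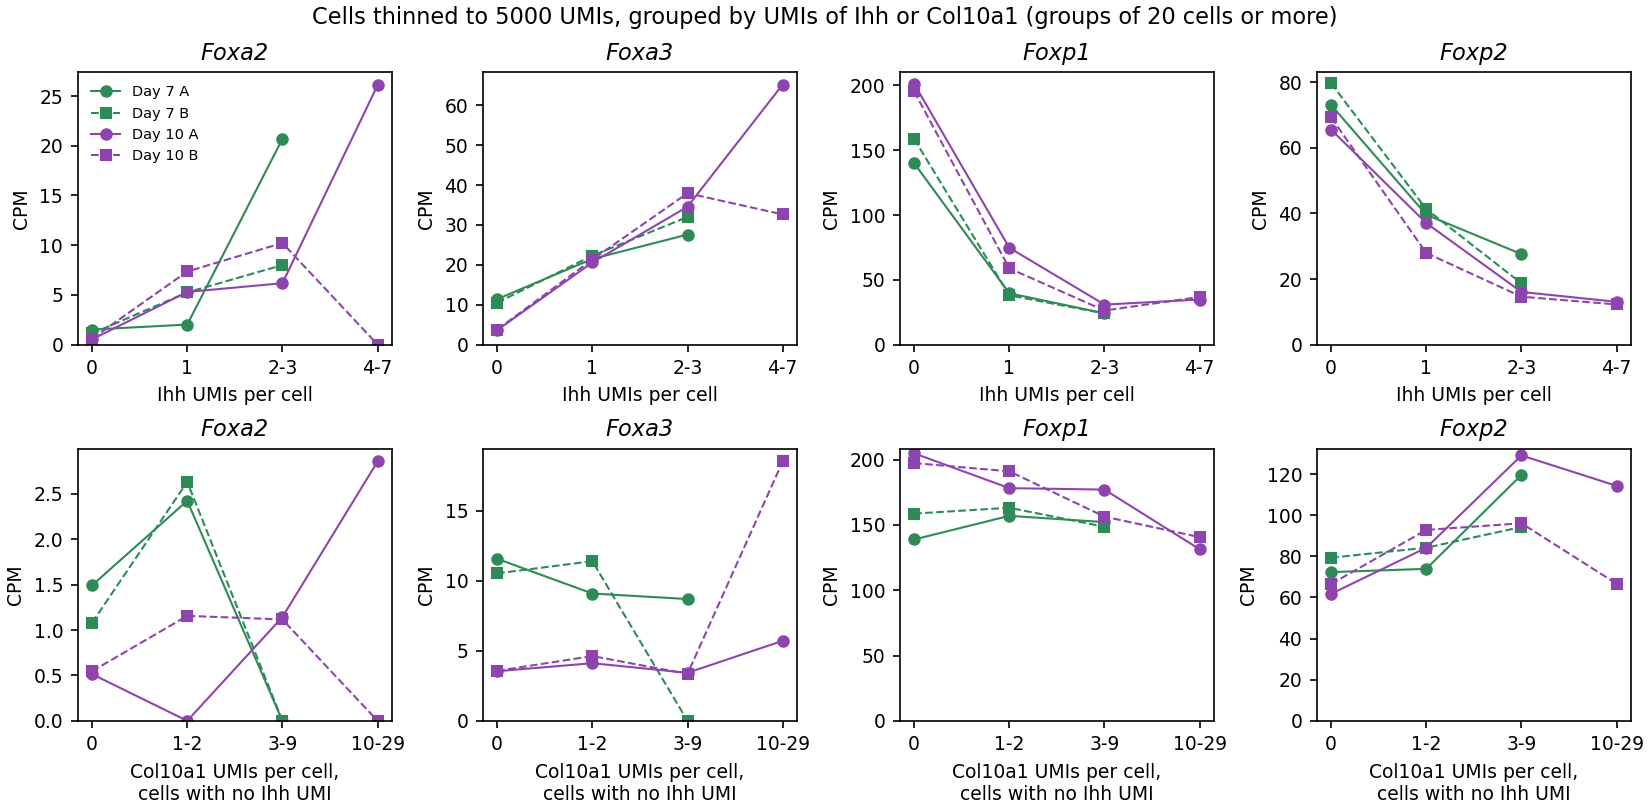
Level in CPM (vertical axes, from 0) in cells thinned to 5000 UMIs, against the *Ihh* UMIs a cell kept (upper row) or, in cells with no *Ihh* UMI, its *Col10a1* UMIs (lower row), 1 line per library and groups of at least 20 cells. *Foxa3* climbed from 3.63 and 3.76 CPM at 0 to 34.6 and 38.0 CPM at 2 or 3 *Ihh* UMIs at Day 10 while *Foxp1* dropped, and the lower row is flat or irregular for *Foxa2* and *Foxa3*.

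The class differences were also measured in cells with an *Acan* UMI. Such cells were 75.4% and 74.0% of the Day 10 culture, and 57.7% and 51.5% of its immune marker cells also had an *Acan* UMI, so this restriction did not select cartilage cells alone. In these cells, *Ihh* only exceeded neither at Day 10 by 3.70 for *Foxa2* (adjusted p = 1.2e-09) and by 2.60 for *Foxa3* (adjusted p = 1.8e-11), and *Foxp1* lay below by −1.38 (adjusted p = 5.9e-12). In all cells thinned to 5000 UMIs, without the *Acan* restriction, these differences were 3.65, 3.09 and −1.75 (adjusted p = 8.6e-08, 7.6e-17 and 4.5e-20). Over all cells at Day 7, the thinned class with both rested on 31 and 23 cells, and its differences from neither were 3.0 ± 1.25 for *Foxa2* and 1.34 ± 0.62 for *Foxa3*, which were not called (adjusted p = 0.252 and 0.325), while *Foxp1* was (−2.81, adjusted p = 1.9e-06).

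Across 7 single markers of other cell groups, cells with and without a UMI of the marker were compared within each library, and the differences were averaged over days. The groups are of cells with a UMI and not cell types: without thinning at Day 10, immune marker cells had a UMI of *Ibsp* in 17.6% and 20.2% against 25.3% and 25.8% of the culture, of *Cnn1* in 16.2% and 15.2% against 40.1% and 37.3%, and of *Tnmd* and *Prg4* in 4.22% to 5.05% against 9.95% to 14.1%. At Day 7 the 33 and 53 immune marker cells had *Tnmd* in 12.1% and 9.43% against 6.34% and 6.77%. Cells with *Acan*, the cartilage proteoglycan, had more *Foxa3* in 6 of 6 libraries, at 5.90 to 16.7 CPM against 0.325 to 1.69 CPM (3.71 ± 0.08, adjusted p = 8.9e-12), and more *Foxa2* in 6 of 6 (3.94 ± 0.34, adjusted p = 1.5e-06). *Foxc1* and *Foxc2* were higher by 0.38 and 0.60, and *Foxp1* was lower in 6 of 6 libraries, by −0.82 ± 0.01 (adjusted p = 3.2e-12). The FOXC differences were widest at Day 2. *Foxc1* was at 217.5 and 220.5 CPM with *Acan* against 127 and 128 CPM without it at Day 2, and at 107.9 and 105.3 against 92.6 and 91.3 CPM at Day 10. *Foxc2* was at 21.6 and 21.7 against 9.75 and 8.99 CPM at Day 2, and at 9.67 and 8.86 against 7.99 and 7.00 CPM at Day 10. All 6 genes were called, beside 57.2% of all genes tested. The *Foxp2* difference was small (−0.05, adjusted p = 0.0434, lower in 4 of 6 libraries), and its call was lost without the low-count filter and without any 1 of Day 2 replicate A, both Day 7 libraries and Day 10 replicate B.

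In cells with an *Acan* UMI, *Foxa3* was at 6.93 and 5.90 CPM at Day 2, 16.5 and 16.7 CPM at Day 7, and 8.07 and 7.71 CPM at Day 10. *Foxa2* in the same cells was at 0.103 and 0.0881, 2.26 and 2.14, and 1.55 and 1.38 CPM. These values were not tested between days. Cells with an *Acan* UMI were 21.1% and 13.0% of the culture at Day 2 and 81.1% and 77.1% at Day 7, so they were not the same part of it. At Day 7, 81.8% and 54.7% of the 33 and 53 immune marker cells also had an *Acan* UMI.

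The connective tissue markers *Tnmd*, *Cnn1* and *Prg4* gave the opposite sign to *Acan* for each of the 6 genes but *Foxp2*, with *Foxa2* called only for *Cnn1*. Averaged over days, *Foxp2* was lower with *Acan* (−0.05) and also with *Tnmd* (−0.06, not called), *Cnn1* (−0.28) and *Prg4* (−0.36). Cells with *Tnmd* (tenomodulin, of tendon) had less *Foxa3* (−1.86 ± 0.10), less *Foxc1* (−0.56) and *Foxc2* (−0.52) and more *Foxp1* (0.35), in 6 of 6 libraries each, with 4 of 6 genes called beside 46.1%. The FOXC differences were widest at Day 2. *Foxc1* was at 64.1 and 68.9 CPM with *Tnmd* against 157 and 160 CPM without it at Day 2, and at 96.05 and 92.4 against 104.7 and 102.4 CPM at Day 10. *Foxc2* was at 6.24 and 5.82 against 13.1 and 12.7 CPM at Day 2, and at 8.58 and 7.57 against 9.31 and 8.46 CPM at Day 10. *Foxp2* with *Tnmd* was not called (−0.06, adjusted p = 0.0707, lower in 2 of 6 libraries), but was called lower in thinned cells (−0.18, adjusted p = 0.00176), with at least 2 UMIs for a group (−0.11), without the low-count filter (−0.10) and without Day 2 replicate B, Day 7 replicate B or Day 10 replicate A (−0.11 to −0.08). Cells with *Cnn1* (calponin, of contractile cells) had 5 genes lower and *Foxp1* higher (0.61), beside 67.3%, and cells with *Prg4* (lubricin, of articular cartilage) had 4 lower and *Foxp1* higher (0.41), beside 31.0%. In thinned cells *Foxa2* with *Cnn1* (−1.79, adjusted p = 0.0592, also lost without Day 2 replicate A) and *Foxa3* with *Prg4* (−1.08, adjusted p = 0.126) were not called. In *Prg4* cells *Foxa2* had a fitted difference of −2.34 ± 1.51 that did not pass (adjusted p = 0.267).

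In cells with *Gdf5* (of the joint interzone) *Foxa3*, *Foxc1* and *Foxc2* were higher by 0.48, 0.27 and 0.29 and *Foxp1* lower by −0.30, with 4 called beside 33.2%. *Foxp1* was lower with *Gdf5* in only 3 of 6 libraries, and its difference turned to 0.05 in thinned cells. It was higher in both Day 2 libraries (180.5 and 182.7 against 152.6 and 146.5 CPM), mixed at Day 7, and lower in both Day 10 libraries (88.2 and 92.1 against 205 and 195 CPM). *Foxa3* was higher in 4 of 6 libraries and lower in both of Day 2, and in thinned cells neither *Foxa3* (0.00, adjusted p = 1) nor *Foxc2* (0.24, adjusted p = 0.52) was called. Cells with *Ibsp* (bone sialoprotein, compared at Day 7 and Day 10) had more *Foxa2* (0.84 ± 0.24, adjusted p = 0.0165) and *Foxa3* (0.69 ± 0.06) and less *Foxp1* (−0.54) and *Foxp2* (−0.28), 4 called beside 22.1%. The *Foxa2* call was lost without Day 7 replicate A (0.29, adjusted p = 0.685) and its sign turned in thinned cells (−3.32, adjusted p = 0.699), where *Foxa3* (0.34, adjusted p = 0.572) and *Foxp2* (0.03, adjusted p = 0.908) were not called either and *Foxp1* was (−0.68). Cells with *Myog* (myogenin, compared at Day 2 and Day 7) had 4 genes lower and none higher, beside 20.1%, with *Foxc1* at −0.89, *Foxa3* at −1.18, *Foxp2* at −0.72 and *Foxc2* at −0.60. The *Foxa3* call was lost in thinned cells (−2.28, adjusted p = 0.179) and without either Day 2 library, that of *Foxp2* without Day 2 replicate B (−0.62), and that of *Foxc2* with RLE size factors (−0.53) and without either Day 2 library or Day 7 replicate A (−0.66 to −0.25). *Foxp1* with *Myog* (−0.08, adjusted p = 0.822) had opposite calls by the library left out, higher without Day 7 replicate A (0.40, adjusted p = 3.1e-07) and lower without Day 7 replicate B (−0.60, adjusted p = 1.1e-09), and was lower with at least 2 UMIs for a group (−0.49, adjusted p = 1.3e-05). Its levels with and without *Myog* were 69.2 and 148 CPM in Day 7 replicate A and 270 and 160 CPM in Day 7 replicate B, so no direction is given.

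**Figure D5:**
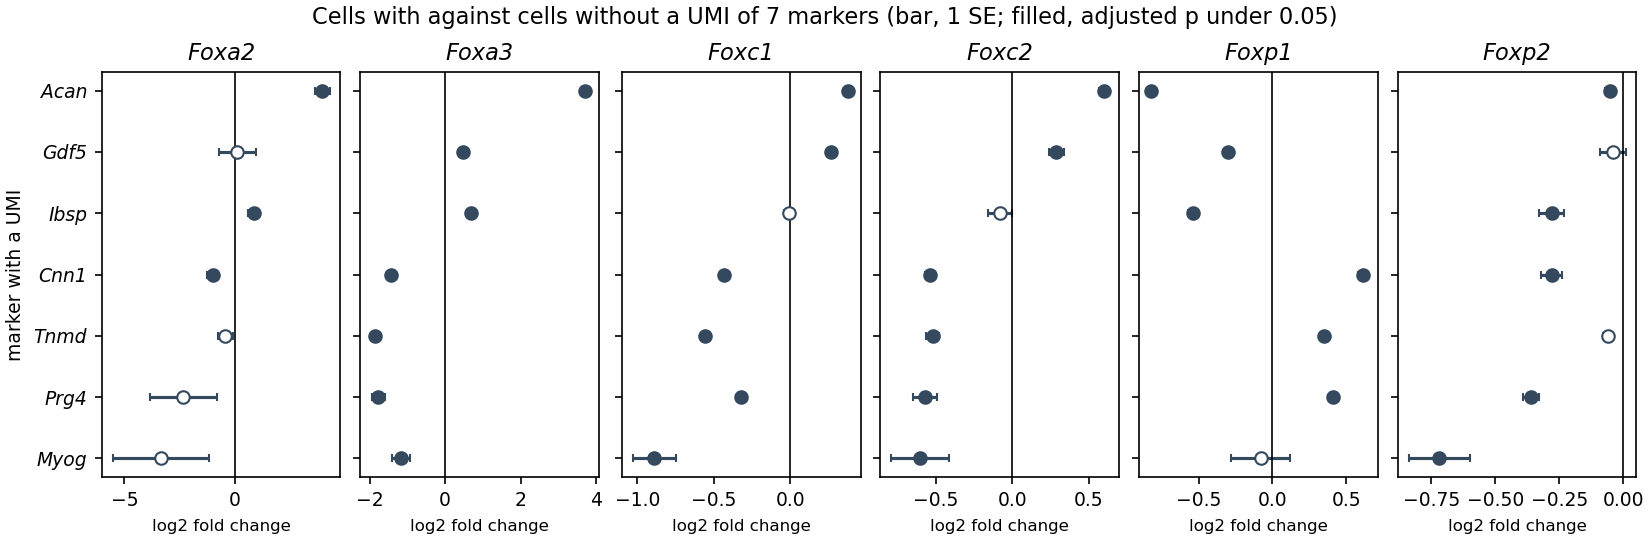
Log2 fold change (horizontal axes, scaled per gene) between cells with and without a UMI of each of 7 markers, averaged over days, with bars of 1 SE and filled points for adjusted p under 0.05. *Foxa2* and *Foxa3* are far to the right for *Acan* (3.94 and 3.71), and *Foxp1* is left for *Acan* (−0.82) and right for *Cnn1*, *Tnmd* and *Prg4* (0.61, 0.35 and 0.41).

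The genes whose pattern over the 16 class sums of Day 7 and Day 10 was most like each member were listed by Pearson r of log2(CPM + 1), over 8612 genes. These sums share libraries and the class rule, so r is a description only. For *Foxa3* they were *Scin*, *Zfp385b* and *Matn1* (r of 0.996 to 0.997), the last a cartilage matrilin, and for *Foxa2* *Dusp15*, *Ing2* and *Fam20b* (0.989 to 0.991). For *Foxp1* they were *Marcks*, *Cdh11*, a mesenchymal cadherin, and *Zeb2* (0.991 to 0.996), and for *Foxp2* *Setbp1*, *Ptprd* and *Kitl* (0.976 to 0.981). *Foxc1* was nearest to *Sptan1*, *Pik3r1* and *Sulf1* (0.918 to 0.927) and *Foxc2* to *Ucma*, a cartilage matrix protein, *Pcdh17* and *Sap30* (0.845 to 0.911). Between members, r was 0.96 for *Foxa2* and *Foxa3*, and −0.93 for *Foxa3* and *Foxp1*.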

How the data were processed

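Single-cell 3′ libraries of 6 DID cultures, 2 for each of 3 days, were analysed from the deposited UMI counts per gene and cell, which the authors made with Cell Ranger 6.1.2 and STAR on GRCm38. The study's own limits on UMIs, genes, mitochondrial and ribosomal shares were applied per library, and doublets were not called. UMIs were summed per library, per class and library, or per marker group and library (sums of at least 20 cells), and fitted with edgeR 4.0.16 (filterByExpr, TMM, quasi-likelihood test), with Benjamini-Hochberg adjustment over all genes and a call at adjusted p under 0.05. Class and marker fits had library as a block. The SE of an edgeR log2 difference was its absolute value over the square root of the test's F statistic. The 95% intervals of the differences rest on this SE, which is approximate where counts are few. DESeq2 1.42.0 was an alternative. Shares of cells carry exact binomial (Clopper-Pearson) 95% intervals in the tables and cover counting error only. Where no cell had a UMI, the limit given above is 3 counts over the cells. The same-lettered libraries of different days did not deviate together (correlations of −0.0172, −0.0969 and −0.00592), so letters were not treated as pairs. The members, marker lists and tests were chosen with earlier results of these data known. Named genes were the 6 members, other forkhead genes of at least 5 CPM at a day, members of the hypertrophy and hedgehog list and the 3 genes of highest correlation with each member. The scripts were tested on simulated data. The p-values between days measure the spread between 2 cultures a day. Those of the class and marker fits measure how far differences within a library disagree between the 2 libraries of a day, because the block removes the spread between cultures.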

Additional observations from a re-analysis of the deposited data

Results flagged for a closer look

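The difference between a class and neither was itself compared between Day 10 and Day 7 with an interaction contrast of the edgeR fit, and 10 of these day differences passed for the 6 genes. All are Day 10 minus Day 7 on the log2 scale. For *Ihh* only they were 1.36 ± 0.26 for *Foxa2* (SE, edgeR adjusted p = 0.00205), 1.32 ± 0.13 for *Foxa3* (4.5e-06), 0.32 ± 0.08 for *Foxc1* (0.015), 0.60 ± 0.16 for *Foxc2* (0.0138) and 0.55 ± 0.08 for *Foxp1* (1.5e-04), beside 20.8% of all genes called. For *Col10a1* only, *Foxc2* differed by 0.65 ± 0.16 (0.024), beside 6.36%. For cells with both they were 2.08 ± 0.28 for *Foxa2* (7.9e-05), 1.80 ± 0.14 for *Foxa3* (3.0e-07), 1.08 ± 0.21 for *Foxc2* (0.00231) and 0.40 ± 0.10 for *Foxp1* (0.00966), beside 18.8%. For *Foxa2* and *Foxa3* the neither class was lower at Day 10 (means of 0.232 and 2.39 CPM) than at Day 7 (0.900 and 9.77 CPM). Cells of the neither class were also deeper at Day 10, with median depths of 20735 and 18615 UMIs against 6315.5 and 7222 UMIs, and its part in these differences was not tested. Cells thinned to 5000 UMIs were the deeper cells only, a smaller part of the culture at Day 7 than at Day 10. Their *Ihh* and *Col10a1* classes were smaller. In them 1 of the 10 kept its call (*Foxa3* in *Ihh* only, 1.88, adjusted p = 7.9e-07) and the other 9 kept their sign. Of those 9, *Foxa2* in *Ihh* only (1.52), *Foxc2* in *Col10a1* only (0.98) and *Foxa3* (1.86) and *Foxp1* (0.99) in cells with both were larger than before thinning and less precise, while *Foxc1* (0.13), *Foxc2* (0.30) and *Foxp1* (0.15) in *Ihh* only and *Foxa2* (1.58) and *Foxc2* (0.64) in cells with both were smaller. Calls were lost or gained when libraries were left out or the rule changed. For *Ihh* only, *Foxc1* was not called without Day 7 replicate A (0.25) or Day 10 replicate A (0.30), *Foxc2* without Day 7 replicate B (0.48) or Day 10 replicate B (0.37), and *Foxp1* with at least 2 UMIs for a class (0.37). For *Col10a1* only, *Foxc2* was not called with DESeq2 (0.62), in *Acan* cells (0.58) or without any 1 of Day 7 replicate A, Day 7 replicate B and Day 10 replicate A (0.47 to 0.68). For cells with both, *Foxc2* was not called without Day 7 replicate A (1.07), nor *Foxp1* without Day 7 replicate B (0.26) or with at least 2 UMIs for a class (0.64). Gained calls were *Foxp2* in *Ihh* only without Day 10 replicate B (0.35) and without the low-count filter (0.20), *Foxp1* (−0.18) and *Foxp2* (0.20) in *Col10a1* only without that filter, *Foxp2* in *Col10a1* only with at least 2 UMIs for a class (0.34), and *Foxc1* in cells with both without that filter (0.28) and without Day 7 replicate A (0.39).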

How the results depend on the processing

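Differences are on the log2 scale and the causes of the changes below were not tested. With the replicate block, none of the 21 results between days changed (*Foxa2* from Day 2 to Day 7 was 5.95, and 13135 genes were called). At both Day 7 and Day 10 *Foxa2* and *Foxa3* in *Ihh* only against neither stayed called under every alternative run. With DESeq2, *Foxp1* from Day 2 to Day 7 (−0.14) and *Foxc1* from Day 7 to Day 10 (−0.13) were called, *Foxa3* in *Col10a1* only at Day 7 was not (−0.32), and 215 genes were called for *Col10a1* only at Day 10. With all barcodes *Foxc2* from Day 2 to Day 7 was called (0.15).

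In thinned cells the genes called were 2706 (*Ihh* only), 1109 (*Col10a1* only), 277 (both) and 2793 (*Col10a1* only against *Ihh* only) at Day 7, 3797, 2592 and 3455 for *Ihh* only, both and *Col10a1* only against *Ihh* only at Day 10, 678, 372 and 203 for the day differences of *Ihh* only, *Col10a1* only and both, and 1521, 3247, 1144, 2404 and 7840 for *Ibsp*, *Tnmd*, *Prg4*, *Gdf5* and *Cnn1*. Thinning turned *Foxc2* in *Ihh* only (0.04), *Foxa2* (0.47) and *Foxp2* (0.15) in *Col10a1* only at Day 7, the *Foxp2* day difference for *Ihh* only (−0.03), *Foxa2* (−3.32), *Foxc1* (0.01) and *Foxp2* (0.03) for *Ibsp*, and *Foxa2* (−0.83), *Foxp1* (0.05) and *Foxp2* (0.04) for *Gdf5*. Among the calls it ended were *Foxa3* in *Col10a1* only at Day 7 (−0.33) and *Foxc2* in *Ihh* only at Day 10 (0.34), beside those given with the comparisons above, and it made calls of *Foxc1* (0.34), *Foxp1* (−0.23) and *Foxp2* (0.51) in *Col10a1* only at Day 10.

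With at least 2 UMIs for a class, *Col10a1* only at Day 10 had 1700 genes called, *Foxa2* (−1.06) and *Foxa3* (−0.41) turned, *Foxc1* (0.40) and *Foxp2* (0.32) were called, its day difference had 1845 genes and turned for *Foxa2* (−0.32), *Myog* had 6222 genes, and *Foxc1* for *Ibsp* (0.03) and *Foxa2* (−1.45) and *Foxp2* (0.02) for *Gdf5* turned. In *Acan* cells *Foxc1* in *Ihh* only at Day 10 was called (−0.17) and *Foxa3* in *Col10a1* only turned (−0.09). Without the low-count filter *Foxc1* in *Ihh* only (−0.15) and *Foxc1* (0.18) and *Foxp1* (−0.16) in *Col10a1* only at Day 10 were called, with 1045 genes there and 1478 for its day difference.

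Leaving out 1 library gave −0.18 to −0.09 for *Foxc1* and −0.21 to −0.15 for *Foxp2* from Day 7 to Day 10. For *Col10a1* only at Day 7 it gave 1363 to 3508 genes (1363 without Day 7 replicate B), −0.37 to −0.31 for *Foxa3*, −0.05 to 0.12 for *Foxc1* and −0.13 to 0.00 for *Foxp2*, and at Day 10 54 to 442 genes (54 without Day 10 replicate B), −0.15 to 0.13 for *Foxa3* and −0.29 to 0.01 for *Foxc2*. *Foxc2* in *Ihh* only at Day 10 ranged from 0.26 to 0.70. The day differences had 1621 to 2237, 181 to 522 and 1553 to 1917 genes for *Ihh* only, *Col10a1* only and both. *Ibsp* had 2506 to 3392 genes and *Myog* 1238 to 5322 (1238 without Day 2 replicate B), with −0.02 to 0.01 for *Foxc1* with *Ibsp*, −1.11 to 0.66 for *Foxa2* and −0.14 to 0.05 for *Foxp2* with *Gdf5*, and −0.60 to 0.40 for *Foxp1* with *Myog* (0.40 without Day 7 replicate A). DESeq2 gave no adjusted p for the *Foxa2* day difference of *Col10a1* only, and thinned cells gave no value for *Foxa2* with *Myog*. *Foxa2* rested on few UMIs, which limits its values in small classes.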
